A study of Homo sapiens with 12 samples.

Results

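The aminoacyl-tRNA synthetase genes of HepG2 cells were followed over a time course of insulin stimulation by RNA-seq. The 36 genes were chosen by name out of 26364 genes in the count table, and all 36 passed the filter on low counts. Of these, 20 have the names of cytosolic enzymes and 16 those of mitochondrial enzymes, which end in 2. A cytosolic name does not show that the enzyme works in the cytosol alone, and the list holds no GARS2 or KARS2. HepG2 is an established line derived from a human liver cancer, and 2 libraries were made at each of 5 times: 0, 5, 10, 30 and 240 min after insulin. The samples hold no library left without insulin for 240 min. Changes at 240 min are thus changes from 0 min, in which insulin and elapsed time cannot be told apart. All groups were HepG2 cells, a line kept in EMEM with fetal bovine serum for routine culture. For insulin experiments, the methods of the study describe 2 days in EMEM alone. These were followed by 2 days in EMEM with bovine serum albumin and either physiologic or pathologic insulin, then by a washout. That passage does not name the RNA-seq. Below, before insulin means before the acute stimulation. The text deposited with every library, those at 0 min included, gives 3 nM insulin for 5 min. The times used here are those of the titles. The labels do not say whether the 2 replicates came from separate cultures. The methods of the study describe RNA-seq done once, on samples called biologically independent. The p-values measure the spread between these samples and not that between repeated experiments. In addition, the peaks of insulin receptor (IR) from 1 ChIP-seq library were set against the same genes.

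Most aminoacyl-tRNA synthetases join 1 kind of amino acid to its matching tRNA, the step that fixes the reading of the genetic code before the ribosome is reached. For most amino acids, animal cells keep separate nuclear genes for the enzymes of the cytosol and of the mitochondria. The latter serve the translation of the proteins encoded by mitochondrial DNA. In the cytosol a group of synthetases is held in the multi-synthetase complex together with the scaffold proteins AIMP1, AIMP2 and EEF1E1. Insulin is known to promote protein synthesis in liver cells, and many cytosolic synthetase genes are known targets of ATF4, the transcription factor of the amino acid response.

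The letters that ATF4 and its C/EBP partners are known to read, TGATGCAA, were found in the promoters of several cytosolic members, which are shown because this is the sequence feature that differed most in count between the cytosolic and the mitochondrial genes among the 14 patterns searched. Promoters were taken from RefSeq (GRCh38.p14) as 300 bases around the start of transcription, 30 of the 36 members had one, and each of the 30 matched GRCh37 exactly once, which gave the positions below. On either strand, TGATGCAA stood in 6 of 16 cytosolic and 0 of 14 mitochondrial promoters, against 0.866% of 35116 RefSeq promoters. Each line gives the 8 letters in capitals, in either orientation, with 10 bases on each side, read 5′ to 3′ on the strand of the gene.
AARS, chr16:70323579-70323606, minus strand: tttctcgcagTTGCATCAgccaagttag
CARS, chr11:3078638-3078665, minus strand: ggggcggcggTTGCATCAgattctagga
IARS, chr9:95055975-95056002, minus strand: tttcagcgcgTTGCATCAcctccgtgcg
MARS, chr12:57881837-57881864, plus strand: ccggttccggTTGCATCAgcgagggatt
NARS, chr18:55289037-55289064, minus strand: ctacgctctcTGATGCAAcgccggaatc
TARS, chr5:33441063-33441090, plus strand: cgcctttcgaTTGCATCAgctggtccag
Counted from the RefSeq start as 0, the match began at -2 in CARS, -4 in MARS, -13 in IARS, 2 in TARS and 14 in NARS, and at -187 in AARS. With the sixth letter free (TGATGNAA, which includes the first pattern) the counts were 6 of 16 and 1 of 14, the latter YARS2, against 3.62% of all promoters. These matches describe the letters in the window and are not measured binding sites.

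The 2 members with the largest rises at 240 min, MARS2 and FARSB, are shown by the 250 bases before their RefSeq start, with CACGTG, the letters known as an E-box, in capitals.
MARS2, chr2:198569843-198570092, plus strand: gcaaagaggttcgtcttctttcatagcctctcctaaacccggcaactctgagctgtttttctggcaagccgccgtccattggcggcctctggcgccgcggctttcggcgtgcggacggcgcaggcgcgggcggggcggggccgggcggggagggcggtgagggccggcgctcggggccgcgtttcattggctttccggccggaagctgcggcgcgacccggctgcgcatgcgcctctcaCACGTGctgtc
FARSB, chr2:223520812-223521061, minus strand: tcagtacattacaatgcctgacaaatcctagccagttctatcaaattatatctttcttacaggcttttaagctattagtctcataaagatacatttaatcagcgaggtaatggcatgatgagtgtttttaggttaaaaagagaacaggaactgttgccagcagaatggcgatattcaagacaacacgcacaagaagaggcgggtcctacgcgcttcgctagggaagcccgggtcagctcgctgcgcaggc
CACGTG stood in 1 of 16 cytosolic promoters (IARS) and in 3 of 14 mitochondrial promoters (CARS2, EARS2 and MARS2), against 7.26% of all promoters. In MARS2 it began at -11, and in FARSB there was no match in the window. The RefSeq start of FARSB lies 263 bases inside the gene as StringTie drew it, and that of MARS2 lies 65 bases inside.

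Libraries held 18347109 to 45005769 counts on genes, the most in 0 min replicate 2. The 2 libraries of each time differed beyond counting noise (chi-square divided by its degrees of freedom, 2.86 to 6.46). The hepatocyte marker list of 8 genes was present in every library, summing to 63641 to 79054 CPM (counts scaled to library size), with ALB at 13892 to 20349 CPM. Of the 6 markers of other cell types, PTPRC was at 0 counts in all libraries, COL1A2 at 0 or 1 count, and the list summed to 40.6 to 49.7 CPM, of which CD68 made up most, at 36.3 to 45.3 CPM. In bulk RNA, fewer cells with an mRNA and less of it per cell cannot be told apart.

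Before insulin, the cytosolic genes were the more abundant set. In TPM, which corrects for transcript length, the mean levels at 0 min had a median of 98.2 over the 20 cytosolic genes, from 29.7 for CARS to 254 for KARS, and a median of 25.5 over the 16 mitochondrial genes, from 6.83 for PARS2 to 187 for IARS2. The sets overlapped, since 7 of the 16 mitochondrial genes lay above CARS, the lowest cytosolic gene. The cysteine and isoleucine enzymes were the pairs in which the mitochondrial gene was the higher of the pair in both libraries at 0 min, with cytosolic to mitochondrial TPM ratios of 0.708 and 0.691 for CARS over CARS2 and of 0.796 and 0.777 for IARS over IARS2. The arginine pair was close to even, at 1.17 and 1.10 for RARS over RARS2, and the proline pair was the farthest apart, at 14.3 and 14.4 for EPRS over PARS2. EPRS encodes an enzyme for both glutamate and proline, and is therefore set against EARS2 and PARS2. Summed over a library, the cytosolic genes held 2140 to 2396 TPM and the mitochondrial genes 668 to 714 TPM across the 10 libraries.

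**Figure D1:**
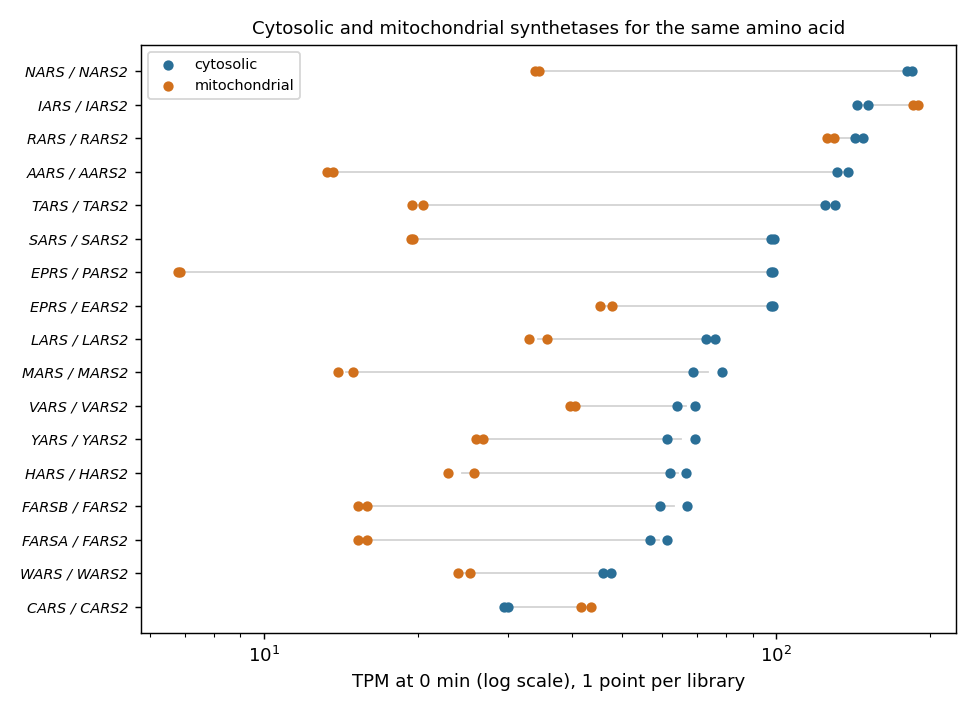
TPM at 0 min on a log axis for the cytosolic (blue) and mitochondrial (orange) synthetase of the same amino acid, 1 point per library and 2 libraries per gene. In the CARS and IARS rows the orange points lie to the right of the blue points.

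In the first 30 min after insulin, no synthetase mRNA passed the test. Levels at each time were set against 0 min with the quasi-likelihood test of edgeR on all 13852 genes that passed the filter, with Benjamini-Hochberg adjustment over all of them and a threshold of 0.05 on the adjusted p. At 5 min 0 of the 36 members were called, against 0% of all genes, and 3 members had an unadjusted p under 0.05, against 14.3% of all genes. At 10 min 0 members were called against 0.137% of all genes, and 3 had an unadjusted p under 0.05 against 5.13%. At 30 min 0 members were called against 0.332% of all genes, and 2 had an unadjusted p under 0.05 against 8.12%. DESeq2 and each of the other alternatives also called 0 members at these times.

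The median log2 fold changes at these times were small in both sets. For the cytosolic genes they were -0.031 at 5 min, 0.031 at 10 min and -0.026 at 30 min, and for the mitochondrial genes -0.032, -0.0050 and -0.041. The members with an unadjusted p under 0.05 were FARSA, VARS and LARS at 5 min, EPRS, FARS2 and PARS2 at 10 min, and LARS and PARS2 at 30 min. The farthest from 0 was PARS2, the mitochondrial prolyl-tRNA synthetase and the least abundant member, with a log2 fold change of -0.43 ± 0.15 (SE) at 10 min and an adjusted p of 0.718 by edgeR.

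**Figure D2:**
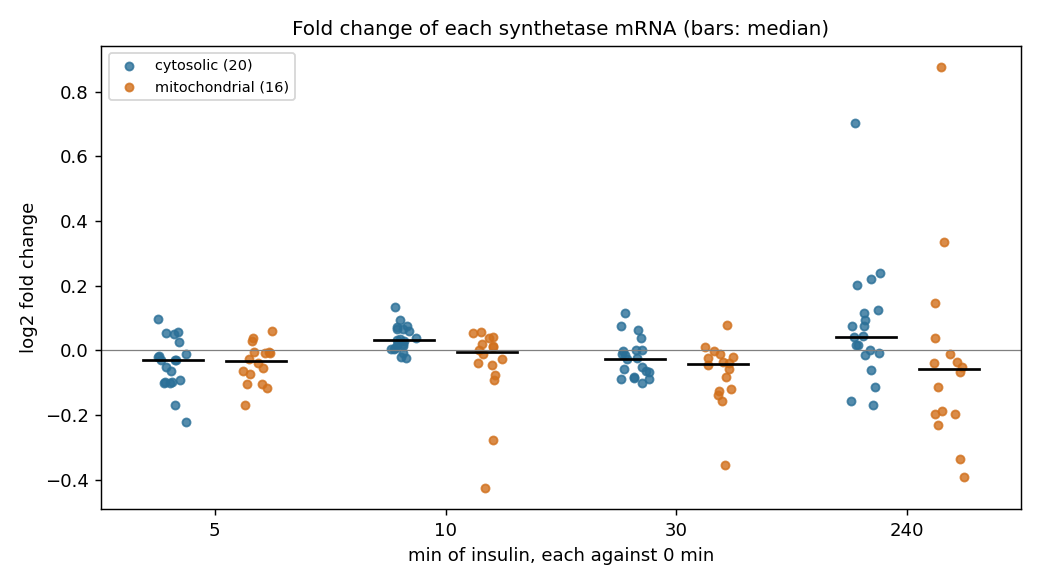
The log2 fold change against 0 min of each of the 20 cytosolic (blue) and 16 mitochondrial (orange) genes at 5, 10, 30 and 240 min, with the median of each set as a black bar. At 240 min 1 gene of each set, FARSB at 0.70 and MARS2 at 0.88, lies far above the rest.

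After 240 min of insulin, 13 of the 36 members (36.1%) passed the test, against 41% of all genes tested, a share near that of all genes. In the cytosolic set 6 of 20 were called, with 4 higher (FARSB, WARS, RARS and FARSA) and 2 lower (MARS and QARS). In the mitochondrial set 7 of 16 were called, with 3 higher (MARS2, RARS2 and EARS2) and 4 lower (FARS2, TARS2, NARS2 and VARS2). Of all genes, 20.6% were called higher and 20.4% lower. The median log2 fold change was 0.042 over the cytosolic genes and -0.059 over the mitochondrial genes, against -0.0026 over all genes. With libraries scaled by the ERCC spike-ins, the cytosolic median turned to -0.0755 and the mitochondrial median was -0.177, where that of all genes was -0.119, and MARS2 and FARSB were the only 2 members still called. The difference between the sets was not tested. By non-overlap of the 2 libraries at 240 min with the 2 at 0 min, 9 cytosolic genes lay above and 3 below, and 3 mitochondrial genes lay above and 9 below, against 34.8% of all genes above, 34.9% below and 69.7% in either direction.

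**Figure D3:**
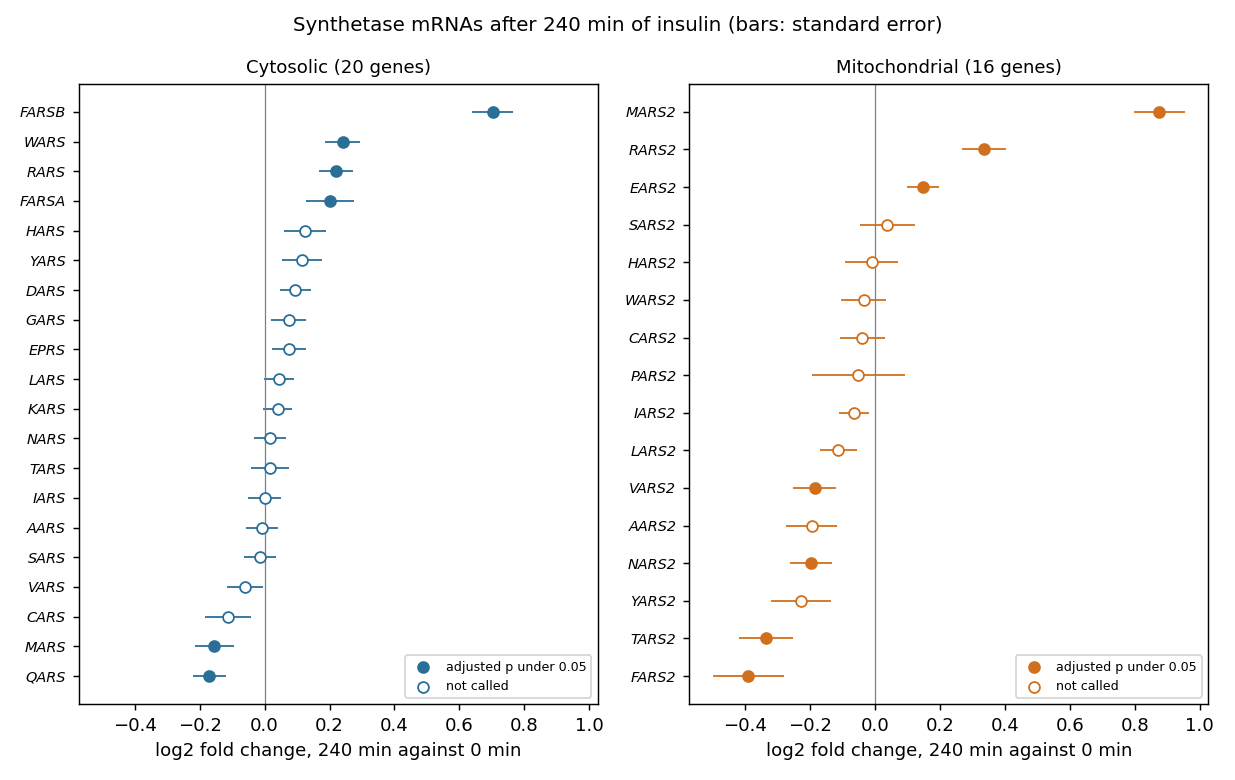
Log2 fold change at 240 min against 0 min for each cytosolic (left) and mitochondrial (right) gene, with the standard error as a bar; filled points passed the test at an adjusted p under 0.05. Filled points number 6 on the left and 7 on the right, and MARS2 and FARSB lie farthest to the right.

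MARS2, the mitochondrial methionyl-tRNA synthetase (chr2:198570028-198573114 on hg19), had the largest rise of the 36. It measured 18.8 and 17.4 CPM before insulin (0 min), 17.6 and 15.8 after 5 min, 17.7 and 19.3 after 10 min, 17.6 and 17.3 after 30 min, then 33.5 and 32.5 after 240 min. Both libraries at 240 min lay above all 8 earlier libraries, which ranged from 15.8 to 19.3 CPM. The log2 fold change at 240 min was 0.88 ± 0.078 (SE), a 1.84-fold rise with an adjusted p of 5.24e-08 by edgeR, and it ranked at place 358 of 13852 genes from the top.

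MARS, which charges methionine tRNA in the cytosol and belongs to the multi-synthetase complex, went the other way. It measured 92.9 and 81.0 CPM before insulin (0 min), 81.2 and 80.3 after 5 min, 87.3 and 89.8 after 10 min, 81.5 and 81.2 after 30 min, then 74.9 and 80.7 after 240 min. The libraries at 240 min lay below those at 0, 10 and 30 min and overlapped those at 5 min, and the log2 fold change was -0.15 ± 0.060 (SE) with an adjusted p of 0.0468 by edgeR. Without 0 min replicate 1 it was -0.063 with an adjusted p of 0.476, and without 240 min replicate 1 it was -0.10 with an adjusted p of 0.324. The TPM ratio of MARS to MARS2, which does not depend on the scaling of the libraries, was between 4.90 and 5.38 in the 8 earlier libraries and was 2.38 and 2.63 at 240 min. In TPM, MARS itself measured 78.3 and 69.0 at 0 min and 64.6 and 70.8 at 240 min, which overlapped. MARS overlaps DDIT3 on the opposite strand by 68 bases, and the counting was stranded.

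FARSB and FARSA encode the beta and alpha chains of the cytosolic phenylalanyl-tRNA synthetase. FARSB (chr2:223436162-223521074) measured 69.3 and 61.0 CPM before insulin (0 min), 65.8 and 62.6 after 5 min, 62.3 and 69.1 after 10 min, 65.0 and 63.2 after 30 min, then 108 and 103 after 240 min. Both libraries at 240 min lay above all 8 earlier libraries, with a log2 fold change of 0.70 ± 0.063 (SE), a 1.63-fold rise with an adjusted p of 5.88e-08 by edgeR. FARSA measured 46.2 and 42.0 CPM before insulin (0 min), 40.7 and 34.3 after 5 min, 45.0 and 41.5 after 10 min, 42.4 and 40.0 after 30 min, then 50.3 and 50.6 after 240 min. It also lay above all 8 earlier libraries, with a smaller log2 fold change of 0.20 ± 0.073 (SE) and an adjusted p of 0.0331 by edgeR. The FARSA call was lost without 0 min replicate 2 (log2 fold change of 0.13), without 240 min replicate 1 (0.20) and without 240 min replicate 2 (0.20). The TPM ratio of FARSB to FARSA was 1.02 to 1.33 in the 8 earlier libraries and 1.57 and 1.47 at 240 min, so the mRNAs of the 2 chains did not keep their ratio. The difference between their fold changes was not tested.

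FARS2, the single-chain phenylalanyl-tRNA synthetase of mitochondria, had the largest fall. It measured 11.6 and 11.8 CPM before insulin (0 min), 10.5 and 10.4 after 5 min, 8.68 and 10.7 after 10 min, 10.4 and 11.2 after 30 min, then 8.64 and 9.31 after 240 min. The libraries at 240 min lay below those at 0 min and overlapped those at 10 min. The log2 fold change was -0.39 ± 0.11 (SE) with an adjusted p of 0.00758 by edgeR, and that adjusted p became 0.0600 without 0 min replicate 2 and 0.0828 without 240 min replicate 1. FARS2 is one of the less abundant members, with 177 to 526 counts in the 4 libraries compared.

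The 2 arginyl-tRNA synthetases both rose. RARS2, the mitochondrial enzyme, measured 93.2 and 95.3 CPM before insulin (0 min), 92.4 and 104 after 5 min, 99.4 and 96.6 after 10 min, 98.0 and 101 after 30 min, then 129 and 108 after 240 min. Its log2 fold change was 0.34 ± 0.067 (SE) with an adjusted p of 5.54e-04 by edgeR, and its 2 replicates at 240 min lay farther apart than those of any earlier time. Leaving out 240 min replicate 1 gave RARS2 a log2 fold change of 0.20 and leaving out 240 min replicate 2 gave 0.45, both called. RARS, a member of the complex, measured 129 and 122 CPM before insulin (0 min), 128 and 127 after 5 min, 119 and 132 after 10 min, 119 and 123 after 30 min, then 144 and 148 after 240 min. Its log2 fold change was 0.22 ± 0.053 (SE) with an adjusted p of 0.00235 by edgeR, or 0.0528 without 0 min replicate 2. For both genes the libraries at 240 min lay above all 8 earlier ones.

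WARS, the cytosolic tryptophanyl-tRNA synthetase, measured 55.5 and 52.6 CPM before insulin (0 min), 50.4 and 50.4 after 5 min, 53.7 and 55.2 after 10 min, 48.9 and 51.9 after 30 min, then 63.0 and 64.4 after 240 min. It lay above all 8 earlier libraries, with a log2 fold change of 0.24 ± 0.055 (SE) and an adjusted p of 0.00164 by edgeR. Its mitochondrial counterpart WARS2 had a log2 fold change of -0.035 ± 0.070 (SE) and was not called. EARS2, the mitochondrial glutamyl-tRNA synthetase, was at 72.9 and 76.2 CPM at 0 min, within 72.2 to 76.4 CPM over the 8 earlier libraries, and at 82.1 and 83.4 at 240 min. Its log2 fold change was 0.15 ± 0.049 (SE) with an adjusted p of 0.0223 by edgeR, and the adjusted p was 0.150, 0.0680 and 0.0987 without 0 min replicate 1, 240 min replicate 1 and 240 min replicate 2.

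**Figure D4:**
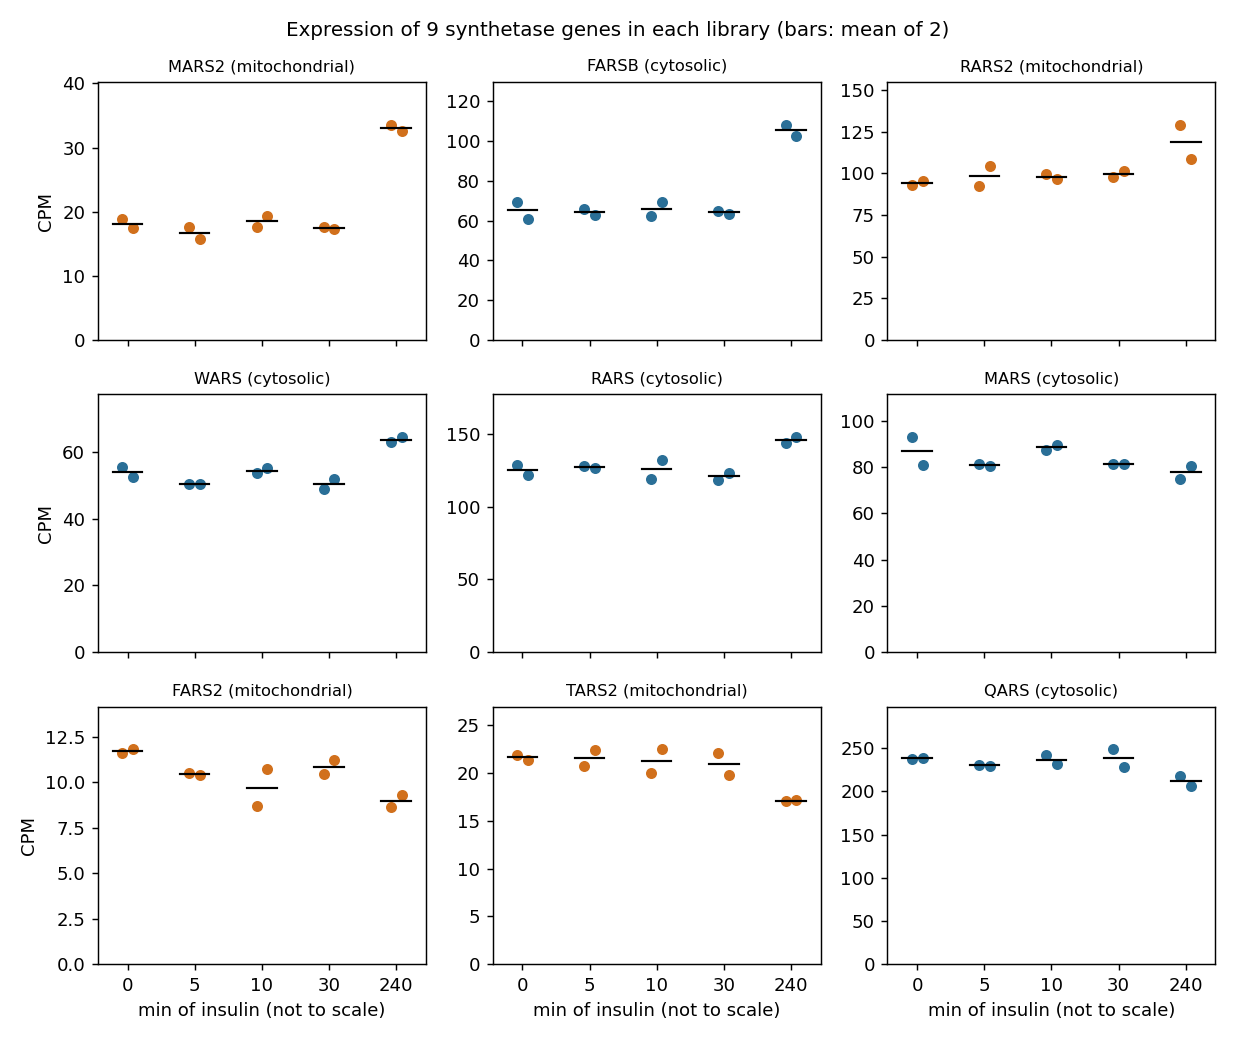
CPM of 9 synthetase genes in each of the 10 libraries, 2 points per time with their mean as a bar, each axis starting at 0 and the times not drawn to scale. MARS2 and FARSB stand apart at 240 min, whereas the change in MARS is near the spread between its replicates at 0 min.

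TARS2, which charges threonine tRNA in mitochondria, fell, with replicates closely matched at 0 and 240 min and farther apart at 5, 10 and 30 min. It measured 21.9 and 21.4 CPM before insulin (0 min), 20.7 and 22.4 after 5 min, 20.04 and 22.4 after 10 min, 22.1 and 19.8 after 30 min, then 17.1 and 17.1 after 240 min. Both libraries at 240 min lay below all 8 earlier ones, with a log2 fold change of -0.34 ± 0.084 (SE) and an adjusted p of 0.00349 by edgeR. NARS2, for asparagine in mitochondria, measured 35.6 and 34.6 CPM before insulin (0 min), 36.3 and 35.7 after 5 min, 35.6 and 37.3 after 10 min, 35.9 and 32.8 after 30 min, then 30.6 and 30.5 after 240 min. It too lay below all 8 earlier libraries, with a log2 fold change of -0.20 ± 0.065 (SE) and an adjusted p of 0.0204 by edgeR. The cytosolic partners TARS and NARS each had a log2 fold change of 0.02 and were not called.

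QARS, which charges glutamine tRNA and belongs to the complex, was among the most abundant members. It measured 238 and 239 CPM before insulin (0 min), 231 and 230 after 5 min, 242 and 231 after 10 min, 249 and 228 after 30 min, then 218 and 206 after 240 min. It lay below all 8 earlier libraries, with a log2 fold change of -0.17 ± 0.051 (SE) and an adjusted p of 0.0120 by edgeR, or 0.0650 without 0 min replicate 2 and 0.102 without 240 min replicate 2. VARS2, for valine in mitochondria, measured 60.0 and 57.5 CPM before insulin (0 min), 55.0 and 53.2 after 5 min, 59.3 and 54.9 after 10 min, 57.8 and 49.3 after 30 min, then 50.9 and 52.3 after 240 min. It lay below 0, 5 and 10 min and overlapped 30 min, with a log2 fold change of -0.19 ± 0.067 (SE) and an adjusted p of 0.0322 by edgeR. For NARS2 and VARS2 the call was lost whichever of the 4 libraries was left out, with adjusted p between 0.0599 and 0.0853 for NARS2 and between 0.0608 and 0.152 for VARS2.

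HARS and HARS2, the closest paralogs of the family, lie head to head on chromosome 5 and overlap by 302 bases on opposite strands. HARS, the cytosolic histidyl-tRNA synthetase, measured 62.2 and 57.0 CPM before insulin (0 min), 56.4 and 54.1 after 5 min, 55.8 and 64.4 after 10 min, 57.8 and 60.2 after 30 min, then 64.7 and 64.6 after 240 min. HARS2 measured 26.9 and 23.6 CPM before insulin (0 min), 25.3 and 23.3 after 5 min, 25.7 and 24.0 after 10 min, 23.1 and 21.7 after 30 min, then 23.7 and 26.1 after 240 min. Neither was called at 240 min, with log2 fold changes of 0.12 ± 0.065 (SE) and -0.010 ± 0.082 (SE). Reads shared by such close copies may be split or lost in counting, so their values are uncertain to that degree.

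The other members did not pass the test at 240 min. Including HARS and HARS2, 14 cytosolic genes were not called, with log2 fold changes of -0.11 to 0.12, of which 11 were within 0.1 of 0, and 9 mitochondrial genes were not called, with log2 fold changes of -0.23 to 0.038, of which 6 were within 0.1 of 0. The cytosolic ones were AARS, CARS, DARS, EPRS, GARS, HARS, IARS, KARS, LARS, NARS, SARS, TARS, VARS and YARS. The mitochondrial ones were AARS2, CARS2, HARS2, IARS2, LARS2, PARS2, SARS2, WARS2 and YARS2. The nearest to the threshold were YARS2 and AARS2, the mitochondrial tyrosine and alanine enzymes, with log2 fold changes of -0.23 and -0.20 and adjusted p of 0.0544 and 0.0557 by edgeR. Some uncalled members also had both 240 min libraries outside all 8 earlier libraries: HARS lay above them, and IARS2 and LARS2 lay below them. The share of all genes that lay outside the 8 earlier libraries was not counted. A p above the threshold does not show that these levels were equal.

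Across amino acids, the cytosolic and mitochondrial genes of a pair were called in opposite directions for methionine (MARS lower, MARS2 higher) and for phenylalanine (FARSA and FARSB higher, FARS2 lower), and in the same direction for arginine. Of the 12 alternative settings listed at the end, MARS kept its call under 4, FARSA under 6, FARS2 under 10, and MARS2 and FARSB under 12. The opposite calls for methionine thus depend on the weak call of MARS. Of the 8 members in the multi-synthetase complex, 1 was higher (RARS) and 2 were lower (MARS and QARS), so that 37.5% were called, with a median log2 fold change of 0.042. Of the other 12 cytosolic members 3 were higher and 0 lower (25% called), with a median of 0.046. Of 18 class I enzymes 5 were higher and 3 lower (44.4% called), and of 17 class II enzymes 2 were higher and 3 lower (29.4% called), against 41% of all genes, where the classes are the 2 unrelated folds of the catalytic domain and EPRS holds both.

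Of the 12 cytosolic members commonly listed as responsive to ATF4, 1 was higher (WARS) and 1 lower (MARS), so that 16.7% were called against 41% of all genes, with a median log2 fold change of 0.017. The 6 members whose promoters hold TGATGCAA in the sequences printed above had log2 fold changes of -0.15 for MARS, -0.11 for CARS, -0.01 for AARS, -2.53e-05 for IARS and 0.02 for both NARS and TARS, of which MARS was called. Of 18 genes of the wider ATF4 program, 17 were tested, 5 were higher and 1 was lower, so that 35.3% were called against 41% of all genes, with a median of 0.087. The 5 higher genes were STC2, DDIT4, SLC7A5, TRIB3 and SLC3A2, with log2 fold changes of 1.10, 0.91, 0.71, 0.64 and 0.34, and the lower gene was SESN2, at -0.51. All 6 kept their direction with ERCC scaling, where TRIB3 and SLC3A2 lost their call (adjusted p of 0.0678 and 0.531 by edgeR). SLC7A5 and SLC3A2 are known to form an amino acid transporter, and DDIT4 and SESN2 are known as inhibitors of mTORC1 signaling. ATF4 itself, at -0.02 ± 0.059 (SE), was not called on counts. By TPM its mRNA lay higher: the 240 min libraries held 307 and 300, beyond the range of 237 to 292 across all earlier libraries. The count and TPM measures thus differ for this gene, for a reason that was not tested. The activity of the ATF4 protein was not measured here.

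Genes that work beside the synthetases were also counted. Of the 12 related genes reported here 10 were tested, and at 240 min 5 of these were called, all higher, against 20.6% of all genes called higher, with a median log2 fold change of 0.16. The mRNAs of all 3 scaffold proteins of the complex were called higher: AIMP2 by 0.43 ± 0.061 (SE), EEF1E1 by 0.36 ± 0.076 (SE) and AIMP1 by 0.14 ± 0.051 (SE) on the log2 scale, with adjusted p of 1.45e-05, 9.36e-04 and 0.0328 by edgeR. In TPM, AIMP1 measured 88.1 and 90.2 at 0 min and 86.9 and 106 at 240 min, which overlapped. TARSL2, a second cytosolic threonyl-tRNA synthetase, rose by 0.45 ± 0.090 (SE), and DTD1, which removes wrongly attached D-amino acids from tRNA, rose by 0.21 ± 0.057 (SE). These 5 genes kept their direction with DESeq2, RLE, upper-quartile and ERCC scaling, but with ERCC scaling their edgeR adjusted p was 0.313 to 0.960, and AIMP1 had an adjusted p of 0.0755 with DESeq2.

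Against 30 min in place of 0 min, which shares the 240 min libraries and is thus not a separate measurement of them, 11 of the 36 members were called, against 38.2% of all genes (19.8% higher and 18.4% lower). In the cytosolic set FARSB, WARS, RARS, FARSA and YARS were higher and QARS was lower. In the mitochondrial set MARS2, RARS2 and EARS2 were higher and NARS2 and TARS2 were lower. The log2 fold change was 0.92 ± 0.080 (SE) for MARS2 and 0.72 ± 0.064 (SE) for FARSB, beside 0.88 and 0.70 against 0 min. YARS, the cytosolic tyrosyl-tRNA synthetase, was at 0.20 ± 0.063 (SE) with an adjusted p of 0.0168 by edgeR, beside 0.11 against 0 min, where it was not called. MARS, VARS2 and FARS2 were called against 0 min and not against 30 min.

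IR is known to associate with chromatin as well as with the cell membrane, and 1971 IR peaks were deposited from 1 library, so peak heights have no replicate check. A peak lay on or within 5 kb of 6 of the 36 members (16.7%), 4 cytosolic and 2 mitochondrial, against 15.7% of the 13852 genes tested. The highest was at LARS, the leucyl-tRNA synthetase known as a leucine sensor, where a peak at chr5:145561969-145562610 over the start of the gene had a score of 1906 and ranked 59 of 1971, against a median score of 79 over all peaks. Peaks also covered the starts of MARS (chr12:57881566-57881948, score 164) and CARS (chr11:3078581-3078942, score 106), and both hold the TGATGCAA window printed above. The peak at FARS2 (score 50) was centred at -435 bases from its StringTie start. The RefSeq start of FARS2 lies at -344 bases from that start, and its promoter window overlapped the peak. The peak counted for EARS2 (score 43) was assigned by the authors' annotation to UBFD1, though it also overlapped the RefSeq promoter window of EARS2. The peak counted for FARSA (score 78) was assigned to CALR, with its centre at -4787 bases from the start of FARSA. LARS was not called at any time, and MARS2 and FARSB had no IR peak within 5 kb.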

How the data were processed

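RNA-seq of HepG2 cells (10 libraries, 2 at each of 5 times) and IR ChIP-seq (1 library) were analysed; the input library was not analysed here. For RNA-seq, the authors trimmed reads with Trim Galore 0.6.4, aligned them to hg19 with STAR 2.6.1d and deposited raw counts per gene from featureCounts 1.6.4, counted as reverse-stranded. The authors also deposited StringTie abundances in TPM. For ChIP-seq the authors aligned with BWA 0.7.17-r1188, called peaks with MACS2 2.2.7.1, and deposited the score of each peak with its HOMER annotation. The labels of the RNA-seq and ChIP-seq libraries carry protocol texts that appear exchanged, and titles were used for the groups.

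Counts were tested with edgeR 4.0.16 (R 4.3.3) by the quasi-likelihood test after filterByExpr and TMM, with all 10 libraries in 1 model without a replicate block. The 92 ERCC spike-in rows (1.59% to 2.36% of counts) were left out. The standard error is the size of the fold change over the square root of F. CPM are scaled by TMM. The members and lists were chosen with earlier results of these data known. Values in every library are given for members called at 5, 10 or 30 min, for the 6 largest called rises and 6 largest called falls at 240 min, for members called against their amino acid partner, and for HARS with HARS2; EARS2 falls outside the 6 rises and is given in part. Genes of the ATF4 and related lists were counted, and at most 6 related genes named; the called genes of the ATF4 program and ATF4 were named after their values were seen. Of the related genes, PET112 and AARSD1 were not tested. A further gene of that list is not reported here, and its counts and median leave it out.

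IR peaks were assigned to every gene whose StringTie body, extended by 5 kb, they touched. Promoters (RefSeq, GRCh38.p14) were matched to GRCh37 by exact sequence and searched on both strands for TGATGCAA or TGATGNAA (ATF4), CACGTG (E-box), TGACGTCA or TGACGT (CREB), CCGGAAGT or CCGGAAG or GGAA (ETS, each within the one before), GGGCGGG (SP), GCCATNTT or CCATCTT (YY1, which can overlap), the known motifs of NRF1 and ZNF143 and a spaced repeat of TTTCC, patterns chosen after the data were seen. Python 3.11.15, pandas 2.3.3 and matplotlib 3.10.9 were used. The alternatives were DESeq2 1.42.0, no filter, at least 10 counts in every library, RLE, upper-quartile and ERCC scaling, a replicate block, limma 3.58.1 on TPM (log2 with a pseudocount of 1, of 0.1, or of 1 for genes whose mean TPM was at least 1), thinning to the smallest total, only the times compared, and each replicate left out.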

Additional observations from a re-analysis of the deposited data

How the results depend on the processing

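MARS2 and FARSB were called at 240 min under all 12 alternatives and with each of the 4 libraries left out. RARS2, WARS and TARS2 lost their call with ERCC scaling alone, as did RARS apart from a left-out library. The other 7 called members lost theirs under 2 to 8 of the 12 alternatives (FARS2 under 2, MARS under 8), and none of the 13 changed direction. ERCC scaling moved the median of all genes at 240 min to -0.119, left 1059 genes called at 240 min and 917 against 30 min, and 1 cytosolic (FARSB) and 1 mitochondrial gene (MARS2) in each comparison; the medians of the sets were then -0.0755 and -0.177, and 31.3% of calls were higher, against 50.2%. With limma on TPM 61.6% to 63.0% were higher; 3493 genes were called at 240 min and 3461 against 30 min on log2(TPM + 0.1). With a pseudocount of 1, of 0.1, and of 1 above a mean TPM of 1, the cytosolic count was 3 in each case in both comparisons, the mitochondrial count against 30 min was 2, 1 and 2, the mitochondrial count against 0 min was 3 on log2(TPM + 0.1), and the mitochondrial median was -0.0166, -0.0172 and -0.0166. The cytosolic median was then 0.085 on each of the 3 TPM scales. With upper-quartile scaling the medians were 0.070 and -0.0312, and DESeq2 called 4 mitochondrial genes at 240 min. The cause of these changes was not tested.

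Genes called at 5 min numbered 0, and 1 with DESeq2, 144 with no filter, 2 with ERCC scaling, 7, 24 and 1 with limma on the 3 TPM scales and 1 with only the times compared. At 10 min they numbered 19, and 74 with no filter, 4 on log2(TPM + 1), 0 with a mean TPM of at least 1 and 40 with only the times compared. At 30 min they numbered 46, and 160 with no filter, 4 with ERCC scaling and 8, 19 and 2 with limma.

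With single libraries left out, genes called ranged from 0 to 22 at 5 min (22 without 5 min replicate 1), 9 to 20 at 10 min (9 without 10 min replicate 2, 11 without 10 min replicate 1, 12 without 0 min replicate 2) and 18 to 46 at 30 min (18 without 0 min replicate 1, 20 without 30 min replicate 2). Cytosolic calls at 240 min ranged from 3 to 6 (3 without 0 min replicate 2) and mitochondrial from 3 to 5 (3 without 240 min replicate 1, 4 without either 0 min replicate). Mitochondrial calls against 30 min ranged from 2 to 6 (2 without 240 min replicate 1, 3 without 30 min replicate 1), the cytosolic median from 0.016 (without 0 min replicate 2; 0.023 without 240 min replicate 2) to 0.059, and the mitochondrial median from -0.0847 (without 0 min replicate 2) to -0.0561.

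The deviations of replicate 1 from the mean of its time correlated weakly between times (10 correlations, -0.115 to 0.133, with 2 above 0.1). With 2 libraries per time this cannot show whether the replicate numbers paired the samples. With the replicate block, 1 gene was called at 5 min and 5845 at 240 min, with 6 cytosolic and 8 mitochondrial members, and no call of the 13 was lost. With peaks above the median score only, 3 members had an IR peak (8.33%, against 8.77% of all genes). With 2 libraries per time, small changes such as that of MARS are near the limit of what the spread allows.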
